A study of Bos taurus with 12 samples.

Results

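The troponin subunits are the 7 genes TNNC1, TNNC2, TNNI1, TNNI2, TNNT1, TNNT2 and TNNT3, chosen by gene symbol from the 18436 genes of the deposited expression table, and their m6A peaks were taken by the same symbols from the deposited peak lists. All 7 had a row. The cells were primary myoblasts from the longissimus dorsi muscle of a newborn Qinchuan animal, so the replicates are cultures and the spread between them is not a spread between animals. The group labelled as myoblasts (GM) was in growth medium with fetal bovine serum. The myotube group (DM) had spent 4 days in differentiation medium with horse serum. Each group had 3 input RNA libraries and 3 libraries immunoprecipitated with an antibody against N6-methyladenosine (m6A), 12 libraries in all. The groups carried no genetic change, and medium and time in culture differed together between them.

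Troponin is the calcium switch of the thin filament in striated muscle. Troponin C (TnC) binds the calcium released from the sarcoplasmic reticulum, troponin I (TnI) holds actin and myosin apart while calcium is low, and troponin T (TnT) anchors the complex to tropomyosin. Vertebrates carry separate genes for slow, fast and cardiac forms of TnI and TnT, while slow and cardiac muscle share a TnC gene. Developing skeletal muscle is known to use cardiac TnT before the adult forms take over. m6A is a methyl mark on adenosines of mRNA that reader proteins recognise and that bears on how long an mRNA lasts and how it is translated.

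Expression is given in FPKM, fragments per kilobase of exon scaled to the mapped reads of the library, which allows levels of different genes to be set side by side per length. All 7 troponin mRNAs were present in the myoblasts and all 7 were higher in the myotubes. The mean of the 3 libraries rose by a fold between 1.62 for TNNI2 and 2.87 for TNNI1, and for each gene the lowest DM library lay above the highest GM library. In limma on log2(FPKM + 1), 7 of 7 passed an unadjusted p under 0.05 with a fold over 1.5, and 7 of 7 had an adjusted p under 0.05 (Benjamini-Hochberg over 12302 tested genes). Of all tested genes, 11.9% were called by that rule, 4.90% higher in DM and 6.97% lower, 42.8% had an adjusted p under 0.05, and 21.1% had 3 DM values above all 3 GM values. The median log2 fold change was 1.04 over the 7 troponin genes and -0.05 over all tested genes. Of the genes called over the whole table, 41.3% were higher in DM, a split that moved to 54.5% when FPKM were rescaled to TPM, and the 7 troponin genes were called higher under both scalings. In bulk RNA, a change in the number of cells of a type and a change in RNA per cell cannot be told apart.

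**Figure D1:**
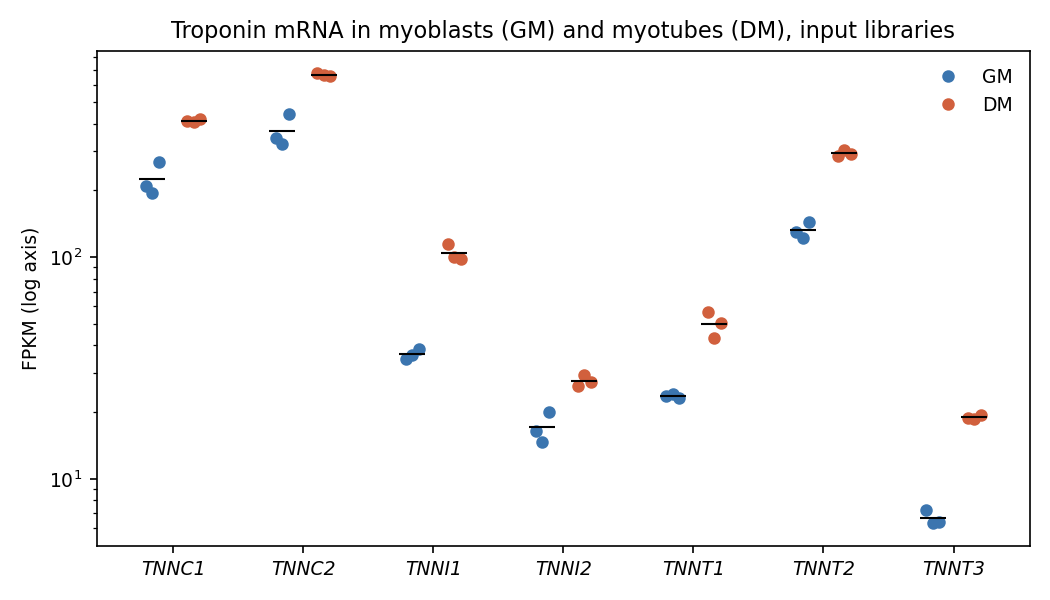
FPKM of the 7 troponin genes in the input libraries on a log axis, with 1 point per library (3 GM in blue, 3 DM in orange) and a black line at the mean of each group. For every gene the 3 DM points lie above the 3 GM points, and the order of the genes by level, from TNNC2 to TNNT3, is the same in both groups.

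The calcium-binding subunits were the most abundant. TNNC2, fast skeletal TnC (chromosome 13, 74596935 to 74599856, minus strand, ARS-UCD1.2), was at 345, 325 and 442 FPKM in GM and at 676, 660.25 and 657 FPKM in DM. TNNC1, the TnC of slow and cardiac muscle (chromosome 22, 48434632 to 48437765, plus strand), was at 209, 196 and 268 FPKM in GM and at 411, 405 and 419 FPKM in DM. In both genes GM replicate 3 was the highest GM library, and the DM libraries lay close together. TNNC2 rose 1.79-fold between group means, with a log2 fold change of 0.85 (SE 0.11, limma, adjusted p = 0.00036). TNNC1 rose 1.83-fold, with a log2 fold change of 0.89 (SE 0.11, limma, adjusted p = 0.00031). Without GM replicate 3 the log2 fold changes were 0.98 and 1.02. TNNC2 ranked 180 among all genes by mean FPKM in GM and 91 in DM, and TNNC1 ranked 270 and 138.

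The inhibitory subunits were the least abundant class. TNNI1, slow skeletal TnI (chromosome 16, 80897787 to 80906695, plus strand), was at 34.8, 36.1 and 38.4 FPKM in GM and at 115, 100.0 and 98.6 FPKM in DM. Its rise of 2.87-fold was the steepest of the 7, with a log2 fold change of 1.49 (SE 0.07, limma, adjusted p = 1.8e-06), and 99.3% of tested genes had a lower log2 fold change. TNNI2, fast skeletal TnI (chromosome 29, 49645728 to 49648440, minus strand), was at 16.5, 14.7 and 20.1 FPKM in GM and at 26.2, 29.4 and 27.4 FPKM in DM. Its rise of 1.62-fold was the smallest of the 7, with a log2 fold change of 0.67 (SE 0.10, limma, adjusted p = 0.0012). The fold of TNNI2 sat close to the threshold of 1.5: without GM replicate 2 the log2 fold change was 0.58, and with a pseudocount of 5 it was 0.57, both just under it.

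Among the tropomyosin-binding subunits, the cardiac form dominated. TNNT2, cardiac TnT (chromosome 16, 80934811 to 80942857, plus strand), was at 131, 123 and 144 FPKM in GM and at 285, 305 and 292 FPKM in DM. It rose 2.22-fold, with a log2 fold change of 1.15 (SE 0.07, limma, adjusted p = 5.3e-06). TNNT1, slow skeletal TnT (chromosome 18, 62274658 to 62285833, plus strand), was at 23.6, 24.2 and 23.3 FPKM in GM and at 56.4, 43.2 and 50.5 FPKM in DM. The GM libraries of TNNT1 were nearly level, whereas its DM libraries had the widest relative spread of the 7 genes, with DM replicate 2 the lowest. It rose 2.11-fold, with a log2 fold change of 1.04 (SE 0.09, limma, adjusted p = 4.8e-05). TNNT3, fast skeletal TnT (chromosome 29, 49579179 to 49594887, minus strand), was at 7.25, 6.32 and 6.42 FPKM in GM and at 18.9, 18.6 and 19.5 FPKM in DM. TNNT3 was the lowest of the 7 in both groups and had the second steepest rise, 2.85-fold, with a log2 fold change of 1.39 (SE 0.06, limma, adjusted p = 1.6e-06).

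The order of levels was TNNC2, TNNC1, TNNT2, TNNI1, TNNT1, TNNI2 and TNNT3 in GM and the same in DM. Every neighbouring pair in that order was separated in 3 of 3 libraries of each group, with no overlap of ranges. The closest neighbours were TNNT1 and TNNI2 in GM, 1.39-fold apart in mean FPKM, and TNNC1 and TNNT2 in DM, 1.40-fold apart. GM replicate 3 was the highest GM library for 5 of the 7 genes (TNNC1, TNNC2, TNNI1, TNNI2 and TNNT2), against 35.0% of all tested genes, and every one of the 7 remained called without it.

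The share that each paralogue took of its subunit's FPKM was compared next, to see whether the mix of slow, fast and cardiac forms moved with differentiation. TnI changed its mix most. TNNI1 made up 67.9, 71.1 and 65.7% of TnI in the GM libraries and 81.4, 77.3 and 78.3% in the DM libraries, and the groups did not overlap. The mean went from 68.2% ± 2.71 (SD, n = 3) to 79.0% ± 2.14 (SD, n = 3), a difference of 10.8 percentage points (exact permutation test, two-sided p = 0.10, adjusted over 5 shares 0.17). With 3 libraries against 3, 0.10 is the smallest p the test can give.

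The mix of TnC stayed within a narrow band. TNNC1 was 37.7, 37.6 and 37.8% of TnC in GM and 37.8, 38.0 and 38.9% in DM, the remainder being TNNC2. The difference of 0.56 percentage points (exact permutation test, two-sided p = 0.10, adjusted 0.17) fell to 0.23 without DM replicate 3. GM replicate 3, which held more TNNC1 and more TNNC2 than the other GM libraries, had the same mix as they did.

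Within TnT, TNNT2 held 80.9, 80.1 and 82.9% in GM and 79.1, 83.2 and 80.7% in DM, so the ranges overlapped (exact permutation test, two-sided p = 0.90, adjusted 0.90). TNNT1 held 14.6, 15.8 and 13.4% in GM and 15.7, 11.8 and 13.9% in DM, again overlapping (exact permutation test, two-sided p = 0.60, adjusted 0.75). TNNT3 held 4.50, 4.12 and 3.70% in GM and 5.26, 5.06 and 5.38% in DM, with no overlap and a difference of 1.13 percentage points (exact permutation test, two-sided p = 0.10, adjusted 0.17). The slow form had the larger share of TnI in DM and the fast form a slightly larger share of TnT, each at the smallest p the design allows, which does not reach 0.05.

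**Figure D2:**
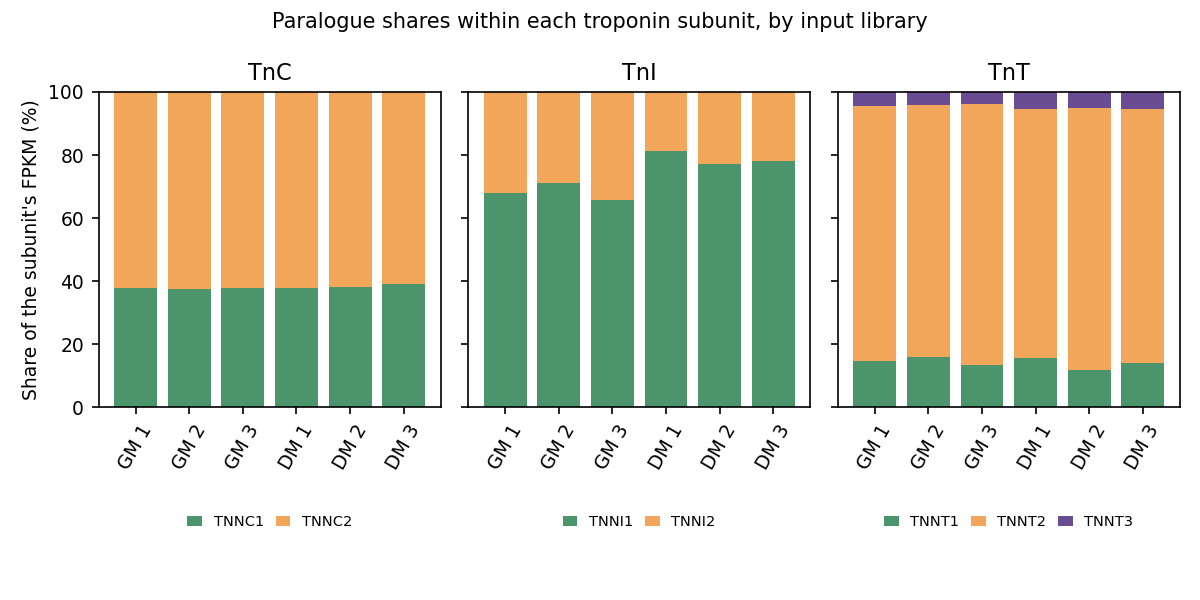
Share of each paralogue in the summed FPKM of its troponin subunit, in percent, for the 3 GM and 3 DM input libraries. The TNNI1 part of TnI is taller in each DM library (77.3 to 81.4%) than in each GM library (65.7 to 71.1%), while the TnC bars are nearly level and TNNT2 fills most of each TnT bar.

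Summed by subunit, TnC mRNA was at 554, 521 and 710.18 FPKM in GM and at 1087, 1065 and 1076 FPKM in DM. TnT mRNA was at 161, 153 and 174 FPKM in GM and at 360.02, 367 and 362 FPKM in DM. TnI mRNA was at 51.3, 50.8 and 58.4 FPKM in GM and at 141, 129 and 126 FPKM in DM. TnI rose most (2.47-fold), TnT followed (2.23-fold) and TnC rose least (1.81-fold). The ratio of TnC to TnI was therefore lower in DM, at 7.71, 8.23 and 8.54, than in GM, at 10.8, 10.3 and 12.2, with no overlap (exact permutation test, two-sided p = 0.10, the smallest possible). TnC to TnT was 3.44, 3.40 and 4.09 in GM and 3.02, 2.90 and 2.97 in DM, also without overlap (exact permutation test, two-sided p = 0.10). Together the 7 genes held 0.174 to 0.217% of the FPKM of all genes in the GM libraries and 0.400 to 0.411% in the DM libraries.

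Related genes of the contractile apparatus did not all move with the troponins. Of 62 tested genes in 6 lists of thin filament, calcium handling, fibre type and regulatory genes, 20 were called higher in DM and 4 lower, against 4.90% and 6.97% of all tested genes. Their median log2 fold change was 0.32, below that of the 7 troponin genes.

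The partners of troponin on the thin filament were mixed, with 3 of 18 tested genes called higher, 1 lower and a median log2 fold change of 0.16. The higher ones were LMOD3 and LMOD2, leiomodins that nucleate actin filaments, and NEB, the giant thin filament protein nebulin. LMOD3 went from 7.11 ± 0.10 to 28.0 ± 1.92 FPKM (SD, n = 3 each), and LMOD2 from 3.31 ± 0.30 to 12.9 ± 0.97 FPKM. ACTA1, skeletal alpha-actin, was the one called lower, at 110.24 ± 20.9 FPKM in GM and 70.0 ± 10.9 FPKM in DM (log2 fold change -0.64, limma, adjusted p = 0.011). It was under the fold with TPM (-0.52) and with size factors (-0.58). The most abundant genes of the list passed no call: ACTA2, smooth muscle actin, was at 2241 ± 224 FPKM in GM and 1713 ± 146 FPKM in DM, and TPM4, a tropomyosin, at 997 ± 77.1 and 1146 ± 55.8 FPKM. Tropomyosin is the protein to which TnT binds, and the other tropomyosin genes of the list, TPM1, TPM2 and TPM3, passed no call either. TPM1 was at 743 ± 28.6 FPKM in GM and 881 ± 56.2 FPKM in DM, and TPM2 at 719.93 ± 46.45 and 649 ± 5.88 FPKM.

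Genes that release, take up and bind calcium had 6 of 16 tested called higher and 0 lower by limma (16 of 16 had an adjusted p under 0.05), with a median log2 fold change of 0.40. SLN, sarcolipin, a peptide that inhibits the calcium pump, went from 1.42 ± 0.13 to 47.7 ± 2.00 FPKM, a log2 fold change of 4.33 (SE 0.06, limma, adjusted p = 2.4e-08). CASQ2, the cardiac calsequestrin that stores calcium in the reticulum, went from 20.7 ± 0.46 to 97.5 ± 7.85 FPKM. CALM2, a calmodulin gene, was at 249.55 ± 4.93 FPKM in GM and 168 ± 6.06 FPKM in DM and did not pass the fold.

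Of the slow fibre list, 4 of 6 tested genes were called higher (median log2 fold change 1.36), and of the fast fibre list 3 of 6 (median 0.54). MYL2, slow and cardiac regulatory light chain, went from 61.6 ± 0.54 to 229 ± 6.14 FPKM, and CSRP3, muscle LIM protein, from 2.93 ± 0.19 to 18.9 ± 3.36 FPKM. The pump gene ATP2A2 had 110.44 ± 6.17 FPKM in GM and 145 ± 8.02 in DM and stayed under the fold. MYLPF, fast regulatory light chain, went from 510.07 ± 25.9 to 867 ± 32.1 FPKM, ATP2A1, the fast calcium pump, from 25.7 ± 0.63 to 43.7 ± 1.87 FPKM, and MYH2, a fast myosin heavy chain, from 0.160 ± 0.050 to 1.5 ± 0.14 FPKM. Lower values in DM, under the fold, were found for CASQ1, the fast calsequestrin (4.06 ± 0.06 and 2.87 ± 0.40 FPKM, limma, adjusted p = 0.0067), and for ACTN3, fast alpha-actinin (16.6 ± 0.91 and 14.1 ± 0.63 FPKM, limma, adjusted p = 0.019). Of the developing muscle list, 3 of 5 were called higher (median 0.83): MYH3, embryonic myosin heavy chain, went from 273 ± 2.74 to 659 ± 15.0 FPKM and MYH8, perinatal myosin heavy chain, from 0.520 ± 0.11 to 4.06 ± 0.05 FPKM. ACTC1, cardiac alpha-actin, was at 883 ± 69.9 and 898 ± 13.4 FPKM (limma, adjusted p = 0.78).

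Of 17 regulators that act on muscle genes, 3 were called higher and 3 lower (median log2 fold change 0.07). MEF2C, a transcription factor of late myogenesis, went from 7.79 ± 0.28 to 70.1 ± 1.64 FPKM, a log2 fold change of 3.02 (SE 0.05, limma, adjusted p = 2.4e-08). MYF5 fell from 11.8 ± 0.94 to 2.26 ± 0.26 FPKM and MYOD1 from 61.6 ± 3.94 to 24.8 ± 1.17 FPKM, both myogenic determination factors. MYOG, myogenin, was high in both groups, at 197 ± 8.95 and 243 ± 14.9 FPKM, and did not pass the fold.

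**Figure D3:**
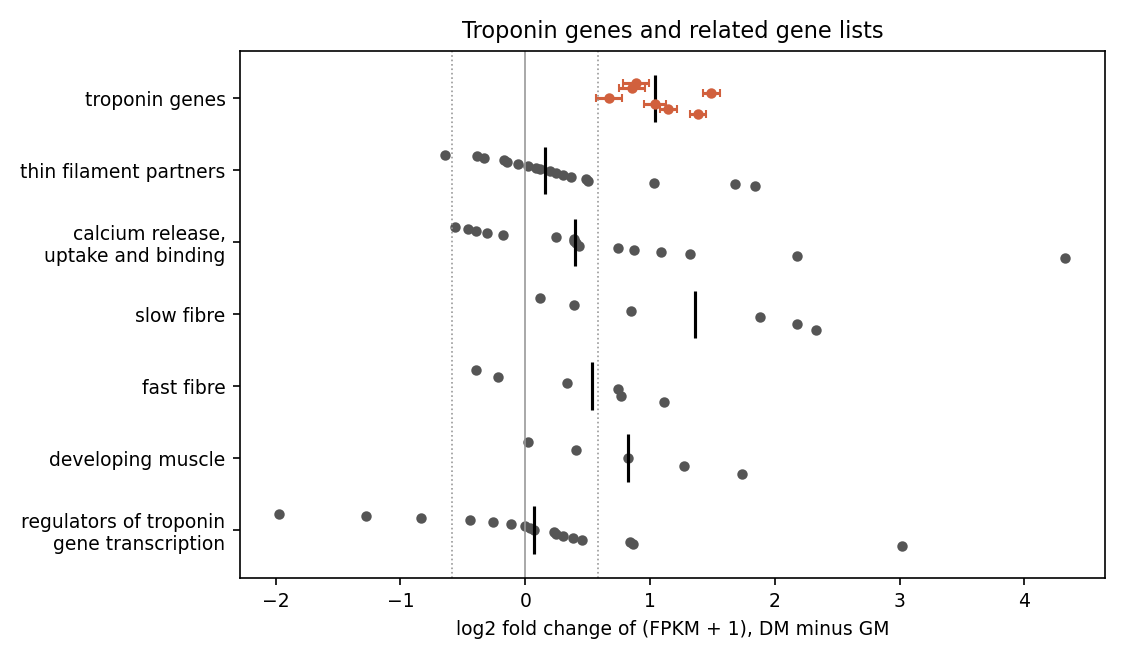
Log2 fold change of (FPKM + 1), DM minus GM, for the 7 troponin genes (orange, with standard errors) and for each tested gene of the 6 related lists (grey), with a black line at the median of each row and dotted lines at a fold of 1.5. The troponin genes lie between 0.67 and 1.49, whereas the thin filament partners spread to both sides of 0 around a median of 0.16.

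The labels of the cells were set against marker lists. Of the myoblast markers, 4 of 6 were called lower in DM, with PAX7 at 1.08 FPKM in GM and 0.062 in DM. Of the 5 myotube markers with a row, CKM and MYH3 were called higher and ACTA1 lower, the last not with TPM or size factors. These markers were already expressed in GM, where their sum was 602 to 664 FPKM, against 1041 to 1085 FPKM in DM. In GM, MYH3 was at 273 FPKM and MYOG at 197 FPKM. The fibroblast list summed to 10282 to 10429 FPKM in GM and 11633 to 12197 FPKM in DM, with 0 of 6 called by limma (3 of 6 with an adjusted p under 0.05), led by the collagen genes COL1A1 and COL3A1 in both groups. The smooth muscle list summed to 3124 to 3615 FPKM in GM and 2577 to 2750 FPKM in DM, with 1 of 5 tested called lower. Cardiac muscle markers were near 0, with a sum of 0.484 to 0.653 FPKM in GM and 0.751 to 1.33 FPKM in DM over 4 rows, 0 of 1 tested called by limma, and NKX2-5 listed at 0 in the DM libraries. Adipocyte markers summed to 2.58 to 2.90 and 2.54 to 3.26 FPKM, with 1 of 2 tested called lower, and no endothelial marker passed the filter, the highest being 0.323 FPKM. The part of the fibroblast and smooth muscle signal in the troponin values was not tested.

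TNNI3 would be the cardiac TnI, but the row of that symbol is described in the deposited table as dynein axonemal assembly factor 3 and spans 62260692 to 62273071 on chromosome 18. Its level was 0.052 to 0.123 FPKM, under the filter of a mean of 0.5 FPKM, and it was not counted as a troponin. The GM list held 1 peak of that name, at a fold enrichment of 13.1, and the DM list held others at 3.80 and 7.45.

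Of the 7 troponin genes, 4 lie near another one, and the genes next to all 7 gave a local comparison. TNNI1 and TNNT2 lie 28116 bases apart on chromosome 16 with LAD1 between them, TNNT3 and TNNI2 lie 50841 bases apart on chromosome 29, and TNNT1 begins 1587 bases after the TNNI3 row. LAD1, ladinin, was at 0.017 to 0.292 FPKM while TNNI1 and TNNT2 on its flanks were far above it in every library. Of the 12 nearest annotated genes on either side of the 7 loci, 7 were tested, too few to tell a count from the share over all genes. By limma, 0 were called higher in DM and 1 was called lower, against 4.90% and 6.97% of all tested genes. That one was UBE2C, a ubiquitin-conjugating enzyme of mitosis 3608 bases from TNNC2, at 13.0, 12.1 and 13.8 FPKM in GM and 0.754, 0.909 and 0.565 FPKM in DM (log2 fold change -3.00, adjusted p = 2.6e-07). SNX21, on the other side of TNNC2, was at 7.85 ± 0.62 and 6.50 ± 0.10 FPKM. NISCH beside TNNC1 was at 9.84 ± 0.31 and 9.69 ± 0.17 FPKM, and PHLDA3 beside TNNI1 at 33.1 ± 3.43 and 37.0 ± 1.52 FPKM. LSP1 and CTSD around TNNI2 were at 3.37 ± 0.30 and 3.20 ± 0.31 FPKM and at 173 ± 12.0 and 197 ± 6.83 FPKM, and PPP1R12C beside TNNT1 at 5.66 ± 0.30 and 6.22 ± 0.37 FPKM. Under the filter were SEMA3G, LAD1, the TNNI3 row, a gene described as proline rich 33 and a gene with no name, none above 0.292 FPKM in any library.

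The genes whose log2(FPKM + 1) followed each troponin most closely over the 6 input libraries were listed by Pearson r, as a description. The 6 points were 3 GM and 3 DM libraries, and each troponin had 320 to 987 genes with an r over 0.95. TNNC1 and TNNC2 were each other's closest match (r = 0.999), followed by ENSBTAG00000004815, described as a class I histocompatibility antigen chain, for TNNC1 (0.997) and CHPF for TNNC2 (0.998). TNNT3 was followed most closely by MYH8 (0.9995) and SCUBE2 (0.9993), and TNNT2 by FAM180A and WFDC1 (both 0.999). TNNT1 was followed by the unnamed ENSBTAG00000026527 (0.999) and PLXNC1 (0.998), TNNI1 by COL18A1 and SPINT3 (both 0.998), and TNNI2 by CBLN3 and BCL7B (both 0.997). Apart from the TnC pair, no troponin was among the closest 2 of another.

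m6A was read from 1 list of peaks per group, so each peak has 1 fold enrichment of immunoprecipitated over input RNA and no error. The lists were taken to be exomePeak calls on pooled libraries. A peak is given by its exon blocks, the pieces left when introns are cut out. All 7 troponin genes carried a peak in both lists, as did 68.6% of tested genes. The GM list of 19739 peaks held 10 troponin peaks, with a median fold enrichment of 4.85 against 3.27 over the list. The DM list of 20790 peaks held 9, with a median of 3.15 against 3.38. A false discovery rate under 0.001 was met by 9 of the 10 GM peaks and by 9 of 9 DM peaks.

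Most troponin peaks ran over many exons rather than marking a short stretch. The peaks of TNNC2 and TNNT2 covered the annotated transcript from end to end in both lists, which held for 1.40% of GM peaks and 2.80% of DM peaks overall. The TNNC2 peak had 7 blocks and 683 exon bases, and the TNNT2 peak 15 blocks and 858 exon bases. The TNNC1 peak, with 6 blocks and 779 exon bases, began 180 bases inside the gene and reached its 3′ end. In each list 3 troponin peaks (TNNT1, TNNT2 and TNNT3) had 11 blocks or more, as did 0.92% of GM peaks and 1.27% of DM peaks, and 55.4% of GM peaks and 48.2% of DM peaks had a single block. A site of methylation within such a peak was not located here.

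**Figure D4:**
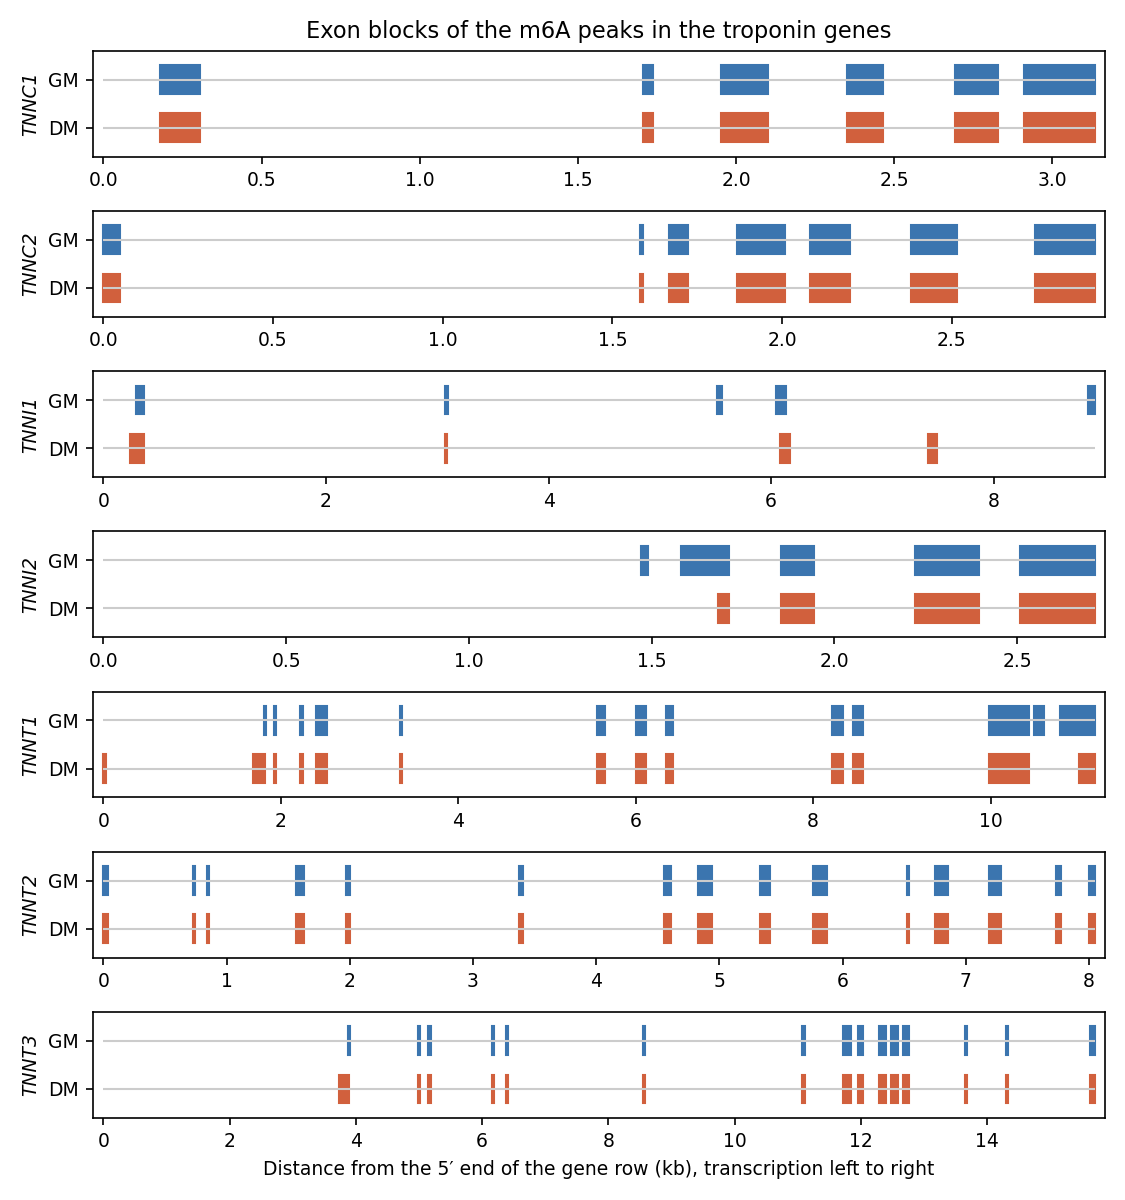
Exon blocks of the m6A peaks in the 7 troponin genes, drawn by distance in kilobases from the 5′ end of the gene row, with GM blocks in blue above DM blocks in orange and the grey line marking the gene. The blocks of TNNC1, TNNC2 and TNNT2 are the same in both groups, those of TNNT1 and TNNT3 reach further 5′ in DM, and those of TNNI1 shift. In DM the blocks of TNNI2 reach less far 5′, and those of TNNT1 cover fewer bases near the 3′ end.

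Between GM and DM, 7 pairs of exactly 1 troponin peak in each list overlapped in their exon blocks, from 6 genes. The fold enrichment was lower in DM in 5 of them, equal in 1 and higher in 1, while 42.9% of all 10239 such pairs had a ratio below 1. Pairs with a ratio over 1.5 in either direction numbered 2 of 7, both lower in DM, and over all pairs 25.1% passed by that rule, 10.8% lower in DM and 14.2% higher. The median log2 ratio was -0.34 over the 7 troponin pairs and 0.07 over all pairs.

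For the calcium-binding subunits the mark was nearly level. The TNNC1 peak had a fold enrichment of 2.73 in GM and 2.73 in DM, and the TNNC2 peak 3.40 in GM and 3.15 in DM. Both peaks had the same exon blocks in both lists, as did that of TNNT2, whereas 8.20% of all pairs had identical blocks.

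For the inhibitory subunits the peaks differed in strength and extent. The TNNI2 peak had a fold enrichment of 5.65 in GM and 2.98 in DM, 1.90-fold lower, and 5.45% of all pairs had a lower ratio. Its GM form spanned 49645728 to 49646968 on chromosome 29 in 5 blocks with 620 exon bases and was annotated to the 3′ UTR, and its DM form ended at 49646759 in 4 blocks with 502 exon bases, all of them inside the GM peak. TNNI1 had the weakest peaks of the 7 genes and no exact pair. A GM peak of 4 blocks (80898082 to 80903922 on chromosome 16, 238 exon bases) had a fold enrichment of 2.03 and overlapped both DM peaks, of 2.20 near the 5′ UTR (80898023 to 80900877) and of 1.25 from exon 4 of 7 (80903863 to 80905277). A second GM peak of 60 bases in the 3′ UTR of TNNI1 (80906636 to 80906695, fold enrichment 1.67) had no counterpart in the DM list. Of the exon bases under TNNI1 peaks, 150 were shared, 148 were found in GM alone and 177 in DM alone.

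The 4 highest fold enrichments of the family in GM were in TnT genes, at the 3′ end of TNNT1, in TNNT3 and in TNNT2. Among them was a TNNT1 peak at 6.53 with a log10 false discovery rate of only -0.64. The TNNI2 peak came next, at 5.65. The TNNT2 peak stood at 6.11 in GM and 4.38 in DM, 1.39-fold lower, and the TNNT3 peak at 6.30 and 4.97, 1.27-fold lower. The TNNT3 peak reached from the 3′ end of the gene at 49579179 to 49591006 on chromosome 29 in GM and to 49591155 in DM, where 149 exon bases were added on the 5′ side. Neither ratio passed 1.5.

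TNNT1 had 3 peaks in GM and 2 in DM, and 1 of its pairs passed a ratio of 1.5. Its multi-exon peak (62276469 to 62285086 on chromosome 18 in GM, 11 blocks) had a fold enrichment of 4.05 in GM and 5.61 in DM, a ratio of 1.39 that did not pass 1.5, and in DM it began at the start of the gene, 62274658, with 12 blocks. The peak at the 3′ end had a fold enrichment of 11.4 in GM over 390 bases (62285444 to 62285833) and of 5.18 in DM over 180 bases (62285654 to 62285833), 2.20-fold lower, and 3.66% of all pairs had a lower ratio. The GM value was above 94.4% of the GM list. The ratio compares peaks of unequal length, and when each peak had to share 50% of its exon bases with the other the pair was lost, leaving 1 of 6 troponin pairs over 1.5, that of TNNI2. Another GM peak between them (62285145 to 62285265, 121 bases in the 3′ UTR) had a fold enrichment of 6.53 but a log10 false discovery rate of only -0.64, and no DM counterpart.

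**Figure D5:**
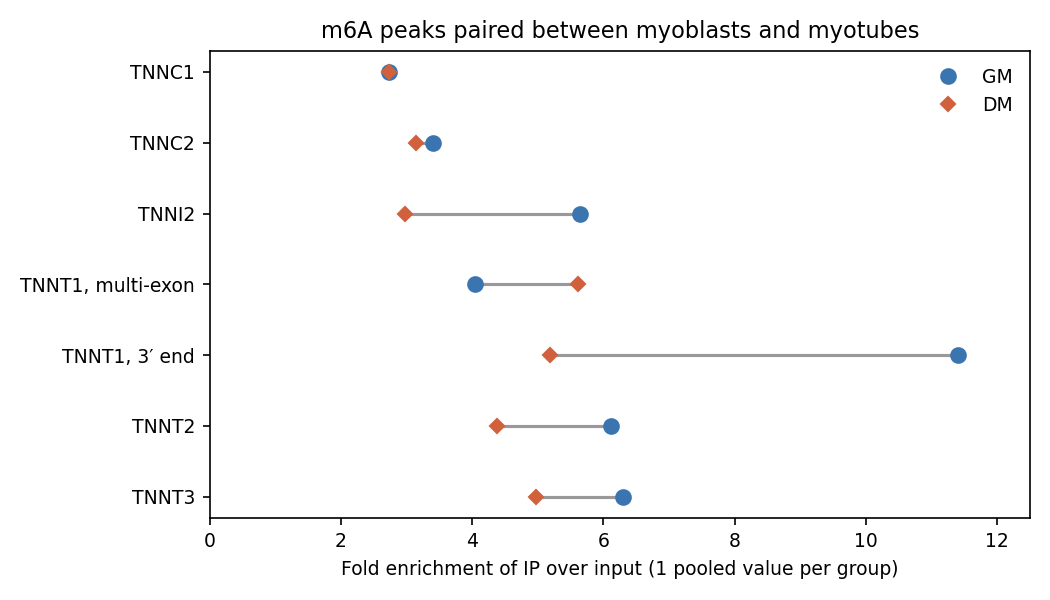
Fold enrichment of immunoprecipitated over input RNA for the 7 troponin peaks paired between the groups, with GM as blue circles and DM as orange diamonds, 1 pooled value per group and no error. The DM value is lower for TNNI2 (2.98 against 5.65) and for the 3′ end of TNNT1 (5.18 against 11.4), and equal for TNNC1.

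Set beside each other, TNNI2 had the smallest rise in mRNA (1.62-fold) and a fold enrichment 1.90-fold lower in DM, and TNNC1 rose 1.83-fold at an equal fold enrichment. TNNT3 rose 2.85-fold with a fold enrichment 1.27-fold lower, TNNT2 2.22-fold with 1.39-fold lower, and TNNC2 1.79-fold with 1.08-fold lower. The largest drop was at the 3′ end of TNNT1, 2.20-fold lower, in a gene that rose 2.11-fold. The multi-exon peak of TNNT1 was 1.39-fold higher. TNNI1, with the steepest rise (2.87-fold), had no exact pair. Input RNA is the denominator of fold enrichment and also the measure of expression, so these readouts are not independent of each other, and no test of their relation was made.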

How the data were processed

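Poly(A) RNA of 3 GM and 3 DM cultures was sequenced by the authors from strand-specific libraries as input and after m6A immunoprecipitation, and reads were aligned with HISAT2 to ARS-UCD1.2. FPKM of the 6 input libraries were computed by the authors with StringTie and deposited for genes of 29 autosomes. The authors deposited 1 peak list per group, annotated with ChIPseeker. The lists were taken to be those of exomePeak, which the methods name for GM and DM peaks and whose column names they carry, and to pool the libraries of a group. The methods name MACS2 for peaks of single samples, and the labels name HOMER. The deposited fold enrichment was taken, from its name, to be the linear ratio of immunoprecipitated over input reads in the peak. The authors' methods do not define its scale. The deposited p-value of each peak was computed by the authors and is unadjusted. The deposited column named score repeats this p-value, and further columns from the authors give its log10 and the log10 of its false discovery rate. The labels name cutadapt and fastp for trimming and the methods Trimmomatic. FPKM summed to 415740 to 434458 per GM library and 386437 to 390827 per DM library. Read depth is not contained in these values, so precision rests on the spread of 3 libraries.

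The authors tested counts, and FPKM were tested here on a log scale instead. Genes whose 6 libraries averaged 0.5 FPKM or more were fitted with limma 3.58.1 in R 4.3.3, with a variance trend, on log2(FPKM + 1), which understates the change of low genes. Calls needed an unadjusted p under 0.05 and a fold over 1.5, with Benjamini-Hochberg adjustment over all tested genes. Shares used exact permutation tests. Peaks were paired by at least 1 shared exon base on the same strand. Peaks and shares were computed under Python 3.11.15 (pandas 2.3.3). The fit was tested on simulated data, and of 200 changed genes among 12302 it recovered 200, with 22 unchanged genes called. The planted changes were larger than the rises of TNNI2, TNNC1, TNNC2, TNNT1 and TNNT2 and lay only in genes well above the filter. Recovery of smaller changes, or of changes in low genes, was not tested.

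The members and lists were chosen with earlier results of these data known. Named genes are the 7 troponins, TNNI3, the 2 most abundant and the 2 most changed called genes of each list, the nearest gene on each side of each locus and the 2 closest in pattern. NEB, ACTA1, PAX7, NKX2-5, CASQ1, ACTN3, TPM1, TPM2 and TPM3 were named after their values were seen. Sequences were not used here. A gene named by this rule is not reported here.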

Additional observations from a re-analysis of the deposited data

How the results depend on the processing

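All 7 troponin genes kept their direction under 14 alternatives to the expression fit (pseudocounts of 0.1 and 5, filters, size factors, TPM, no variance trend, a replicate block, and each library left out), and 6 of them also kept their call. TNNI2 alone dropped under the fold, with a pseudocount of 5 and without GM replicate 2, where 6 of 7 genes were called. At a fold over 2, 4 of 7 were called (TNNI1, TNNT1, TNNT2 and TNNT3). With a pseudocount of 5, 726 genes of the whole table were called in place of 1461. The replicate numbers did not pair the libraries: deviations of same-numbered GM and DM libraries from their group means correlated at -0.08, -0.12 and -0.21, and no library correlated best with its own number. With the replicate block, 7 of 7 troponin genes and 24 related genes were called, as without it. With equal numbers of libraries the block cannot change a mean difference, so the TNNI1 share differed by the same 10.8 points. Of the related genes, 20 were called higher and 4 lower, against 25 and 3 with TPM and 20 and 3 with size factors, where the call of ACTA1 was lost. With each library left out, that difference ran from 9.50 to 12.2 points, that of TNNC1 from 0.23 to 0.78, that of TNNT3 from 0.92 to 1.32, that of TNNT1 from -1.76 to 0.20 and that of TNNT2 from -1.41 to 0.65. Of the paired troponin peaks, 1 passed a fold of 2 (the 3′ end of TNNT1), and 1 passed 1.5 when 50% of both peaks had to overlap (TNNI2). With a fold enrichment of at least 2 required, the lists held 9 and 8 troponin peaks.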
